A study of Homo sapiens with 24 samples.

Results

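Epithelial-mesenchymal transition (EMT) was followed through 10 genes: the transcription factors SNAI1, SNAI2, ZEB1, ZEB2, TWIST1 and TWIST2, the cadherins CDH1 and CDH2, and the mesenchymal products VIM and FN1. They were taken by gene name from the 57820 genes counted in each library, and all 10 were found. RNA-seq was performed on Cal33 and SAS, 2 established lines of squamous cell carcinoma of the tongue, with wild type as the labelled genotype. Cells of each line received 4.5 µM GSK-J1 with irradiation at 4 Gy, 4 Gy alone, GSK-J1 alone or sham treatment, and RNA was isolated after 24 h from 3 replicates per group. GSK-J1 inhibits the H3K27 demethylases KDM6A (UTX) and KDM6B (JMJD3), and the control condition is labelled sham, while the study's methods name the solvent DMSO as the control for GSK-J1. Each line stands for 1 tumor, the 3 replicates of a group are not described as separate cultures, and the p-values then measure only the spread between these samples, which may be technical.

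In EMT, epithelial cells loosen their junctions and take up a migratory shape. The zinc finger repressors of the SNAIL and ZEB families bind E-box elements in the CDH1 promoter, and the basic helix-loop-helix factors of the TWIST family act on the same program. Loss of E-cadherin (CDH1), with gain of N-cadherin (CDH2), of the intermediate filament vimentin (VIM) and of the matrix protein fibronectin (FN1), is the classical readout, and carcinomas often stop at intermediate states. The comparisons asked how far apart Cal33 and SAS stood in this program, and what irradiation and GSK-J1 changed in each line.

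Total counts on the strand of the gene lay between 54200036 and 96848227 per library, and levels are given as CPM, which are counts scaled to a common library size after TMM. All 10 squamous epithelium markers on a list were counted in every group, and their summed level was 6829 to 10491 CPM in Cal33 and 3173 to 4493 CPM in SAS libraries. Of 8 fibroblast markers, COL1A1 was the most abundant, THY1 had at most 4 counts per group, and the list summed to 23.4 to 44.0 CPM in Cal33 and 1.86 to 5.33 CPM in SAS libraries. The 4 matched endothelial markers summed to 16.6 to 59.2 CPM in Cal33 and 7.42 to 99.0 CPM in SAS, mostly CDH5 and, next to it, VWF, while KDR had at most 1 count per group. The 7 immune markers summed to 5.48 to 9.11 CPM in Cal33 and 5.44 to 24.5 CPM in SAS, with MS4A1 at 0 throughout. Among the SAS libraries, GSK-J1 replicate 1 and GSK-J1 with 4 Gy replicate 1 stood apart. They held the transcripts of 28 genes that were abundant in Cal33 and near 0 in SAS sham cells at 1.44% and 0.706% of the Cal33 level, against 0.00247 to 0.0185% in the other 10. Even at the highest Cal33 level, such a share would add 0.112 CPM to the 2.89 CPM of CDH2 in the first of them and 0.107 CPM to the 1.90 CPM of SNAI1, and less to each other member relative to its own level.

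The 10 genes lie on 7 chromosomes, with positions as in the annotation of the files on hs37d5 (the GRCh37 sequence), from the first to the last base of the gene, over which all exons were counted. ZEB2 (chromosome 2, 145141648-145282147, minus strand), FN1 (chromosome 2, 216225163-216300895, minus strand) and TWIST2 (chromosome 2, 239756673-239795893, plus strand) share a chromosome. VIM (chromosome 10, 17270258-17279592, plus strand) and ZEB1 (chromosome 10, 31607424-31818742, plus strand) share another. TWIST1 lies on chromosome 7 (19060614-19157295, minus strand), SNAI2 on chromosome 8 (49830249-49834299, minus strand), CDH1 on chromosome 16 (68771128-68869451, plus strand), CDH2 on chromosome 18 (25530930-25757410, minus strand) and SNAI1 on chromosome 20 (48599536-48605423, plus strand).

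CDH1 was the most abundant of the 10 genes in sham cells of both lines once counts were divided by exonic length. That length takes in all annotated exons, with 17315 bases for FN1 and 2282 for SNAI2, and ranks between genes depend on it. In Cal33 sham cells it reached 28.3 ± 1.06 CPM per kb (mean ± SD, n = 3). SNAI2 followed with 9.16 ± 1.85 CPM per kb, then TWIST1 with 2.37 ± 0.175 and SNAI1 with 0.856 ± 0.292 CPM per kb. CDH2 at 0.531 ± 0.224 CPM per kb overlapped SNAI1, and FN1 stood below both at 0.20 ± 0.0514 CPM per kb. VIM, ZEB1, TWIST2 and ZEB2 came last, each under 0.04 CPM per kb in every Cal33 sham library. In SAS sham cells the order began with CDH1 at 62.1 ± 11.5 and SNAI2 at 11 ± 2.01 CPM per kb. FN1 took the third place with 8.47 ± 2.97 CPM per kb, overlapping SNAI2, and TWIST2 the fourth with 3.69 ± 0.294 CPM per kb. TWIST1 and SNAI1 overlapped at 1.21 ± 0.114 and 1.01 ± 0.143 CPM per kb, as did VIM and CDH2 at 0.604 ± 0.0498 and 0.538 ± 0.146 CPM per kb. ZEB1 and ZEB2 were again the lowest.

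**Figure D1:**
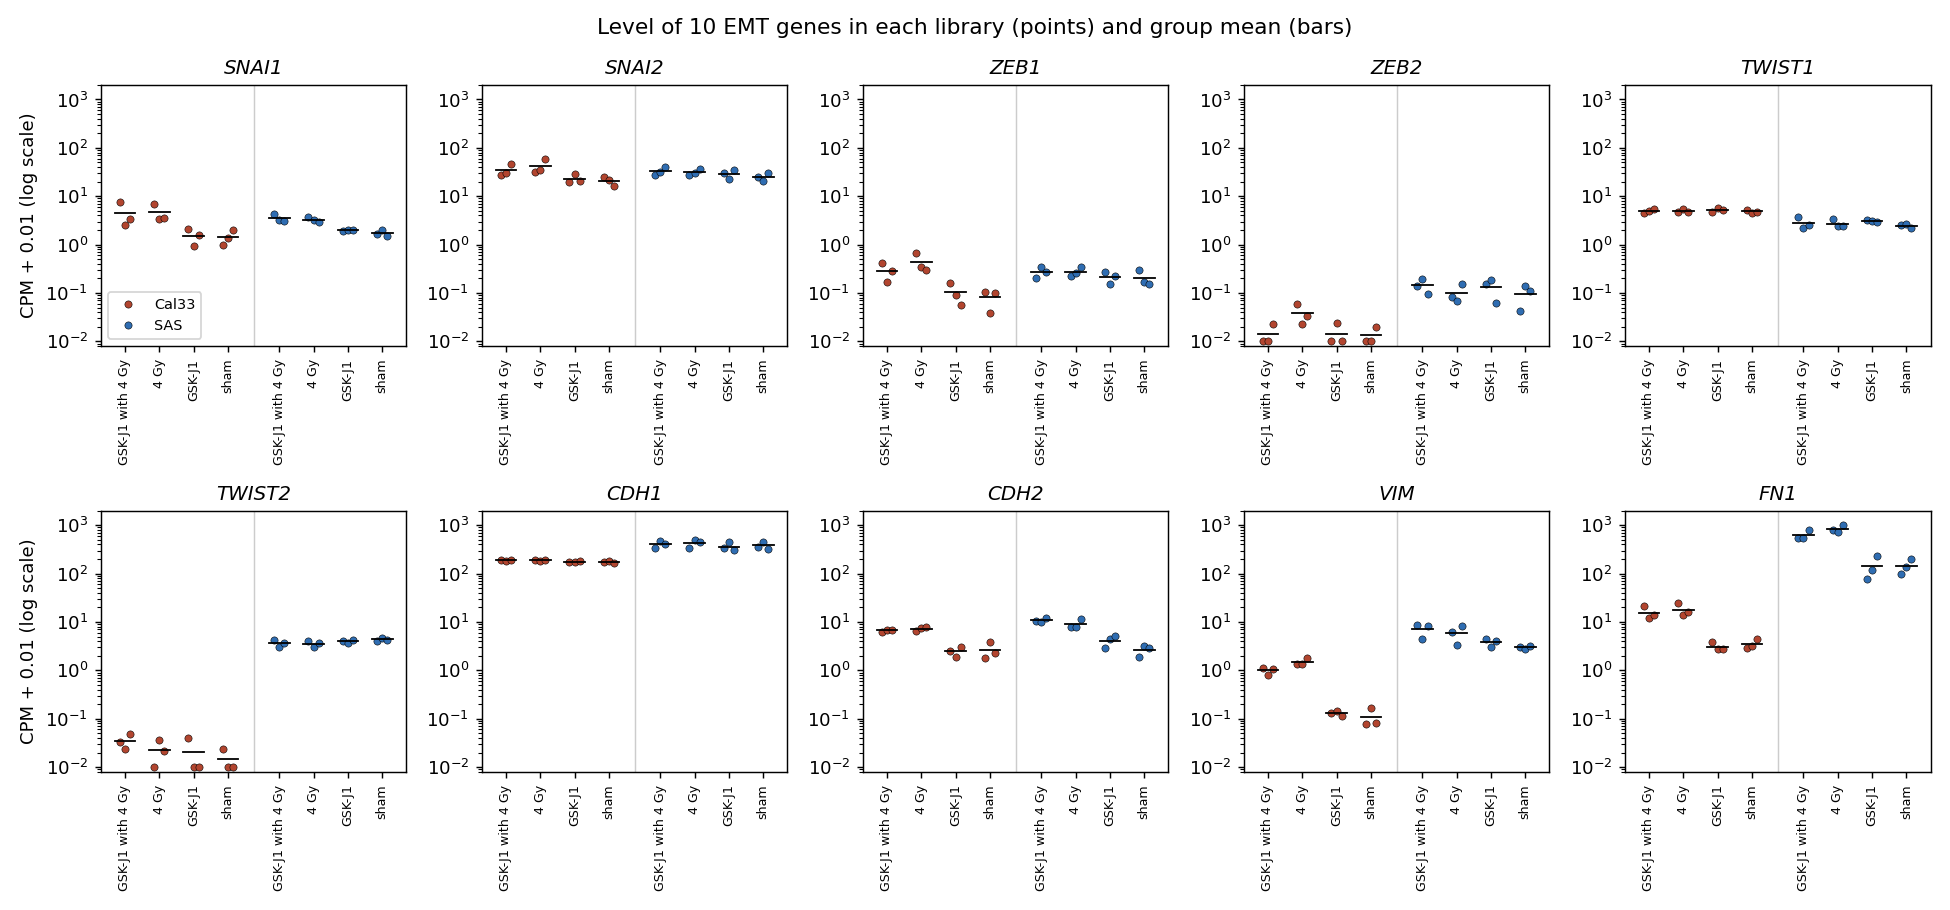
CPM of each gene in each of the 24 libraries (points, log axis after adding 0.01 CPM) with the group mean (bar), Cal33 on the left and SAS on the right of each panel. FN1, VIM and TWIST2 separated the lines, and FN1, CDH2 and VIM stood higher in both irradiated groups than in both unirradiated groups of Cal33. CDH1 was lower and TWIST1 higher in Cal33 than in SAS sham cells.

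The lines differed in 7 of the 10 genes under sham treatment, 1 higher and 6 lower in Cal33, in a quasi-likelihood F test of edgeR with Benjamini-Hochberg adjustment over all genes tested. The background was wide, since 54.5% of all genes were called between the lines. Both mesenchymal products were among the genes lower in Cal33. FN1, the secreted glycoprotein through which integrins grip the matrix, gave 2.82, 3.11 and 4.48 CPM in the 3 Cal33 sham libraries and 99.3, 139.6 and 201 CPM in the 3 SAS sham libraries. The groups did not overlap (log2 fold change -5.40 ± 0.40 (SE), adjusted p = 2.06e-10). VIM, the intermediate filament of mesenchymal cells, gave 0.0662, 0.159 and 0.0715 CPM in Cal33 and 3.09, 2.72 and 3.18 CPM in SAS sham cells (log2 fold change -4.94 ± 0.39 (SE), adjusted p = 5.04e-10). In Cal33 this rested on 5, 11 and 7 counts, few counts for a gene of this length. CDH1, which anchors adherens junctions, was lower in Cal33 as well, with 174, 181 and 168 CPM against 363, 461 and 323 CPM in SAS (log2 fold change -1.13 ± 0.14 (SE), adjusted p = 7.95e-07). For CDH2, the cadherin of neural and mesenchymal cells, the sham libraries overlapped at 1.75, 3.87 and 2.27 CPM in Cal33 and 1.84, 3.21 and 2.93 CPM in SAS.

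The TWIST family split by line. TWIST1 was the one gene higher in Cal33, with 5.19, 4.48 and 4.81 CPM in Cal33 and 2.48, 2.67 and 2.21 CPM in SAS sham cells (log2 fold change 0.98 ± 0.18 (SE), adjusted p = 7.55e-05). TWIST2, its close relative, was all but restricted to SAS, with 1, 0 and 0 counts in the Cal33 and 254, 296 and 385 counts in the SAS sham libraries. Scaled for library size, the ratio of Cal33 to SAS was 0.000953 (95% exact binomial interval 2.41e-05 to 0.00532, counting error only). Over all treatments, TWIST2 had 0 to 3 counts in the 12 Cal33 libraries and 158 to 385 in the 12 SAS libraries, and a count of 0, found in 5 Cal33 libraries, allows up to 3. The fitted TWIST2 value (log2 fold change -9.56 ± 0.54 (SE), adjusted p = 2.4e-12) depends on the small count added to such zeros and gives no bound.

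Both ZEB factors, which repress CDH1 and are held down by the miR-200 family in epithelial cells, were scarce in both lines. ZEB1 had 7, 2 and 9 counts in Cal33 sham libraries and 18, 10 and 13 in SAS sham libraries, which do not overlap in CPM (log2 fold change -1.39 ± 0.53 (SE), adjusted p = 0.03). This call was lost on leaving out Cal33 sham replicate 2 (adjusted p = 0.12) or SAS sham replicate 1 (adjusted p = 0.16), and in the fit of the 6 sham libraries alone (adjusted p = 0.059). The opposite strand of ZEB1 carried 31 to 94 counts per Cal33 library and 44 to 96 per SAS library, more than the 2 to 53 and 10 to 32 counts of ZEB1 itself, and its antisense neighbor ZEB1-AS1 was detected in every group. ZEB2 had 0, 0 and 1 counts in Cal33 sham cells and 2, 8 and 9 in SAS sham cells, a ratio of 0.0469 (95% exact binomial interval 0.00113 to 0.295), and was called lower in Cal33 (adjusted p = 0.00159). Neither SNAIL factor was called between the lines under sham treatment. SNAI1 (Snail), a direct repressor of CDH1, gave 0.98, 1.39 and 1.96 CPM in Cal33 and 1.62, 1.97 and 1.5 CPM in SAS. SNAI2 (Slug), which basal keratinocytes also express, gave 24.6, 21.8 and 16.3 CPM in Cal33 and 25, 20.7 and 29.9 CPM in SAS.

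The line comparison was repeated under each treatment. With GSK-J1 in both lines 7 of the 10 genes were called (background 54.9%), with 4 Gy 5 (background 53.2%) and with GSK-J1 and 4 Gy 7 (background 54.5%). FN1, VIM, CDH1 and TWIST2 were called lower and TWIST1 higher in Cal33 under each treatment, while ZEB1 was called under none of the 3 (adjusted p = 0.060 with GSK-J1, 0.21 with 4 Gy and 0.92 with both). The difference for VIM was -1.99 ± 0.30 after 4 Gy and -4.99 ± 0.37 with GSK-J1 on the log2 scale (SE). CDH2, which overlapped in sham cells, was lower in Cal33 than in SAS with GSK-J1 (log2 fold change -0.73 ± 0.27 (SE), adjusted p = 0.0237) and with GSK-J1 and 4 Gy (log2 fold change -0.71 ± 0.26 (SE), adjusted p = 0.0251). Leaving out Cal33 GSK-J1 replicate 2, SAS GSK-J1 replicate 2 or SAS GSK-J1 replicate 3 ended the first of these calls (adjusted p = 0.12, 0.077 and 0.13). The second was lost without Cal33 GSK-J1 with 4 Gy replicate 1 (adjusted p = 0.070) or its SAS counterpart replicate 3 (adjusted p = 0.088). With 4 Gy alone, ZEB2 was no longer called, at 4, 1 and 2 counts in Cal33 and 5, 3 and 11 in SAS, and ZEB1 had 53, 25 and 25 counts in Cal33 and 15, 13 and 26 in SAS, which overlap in CPM.

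**Figure D2:**
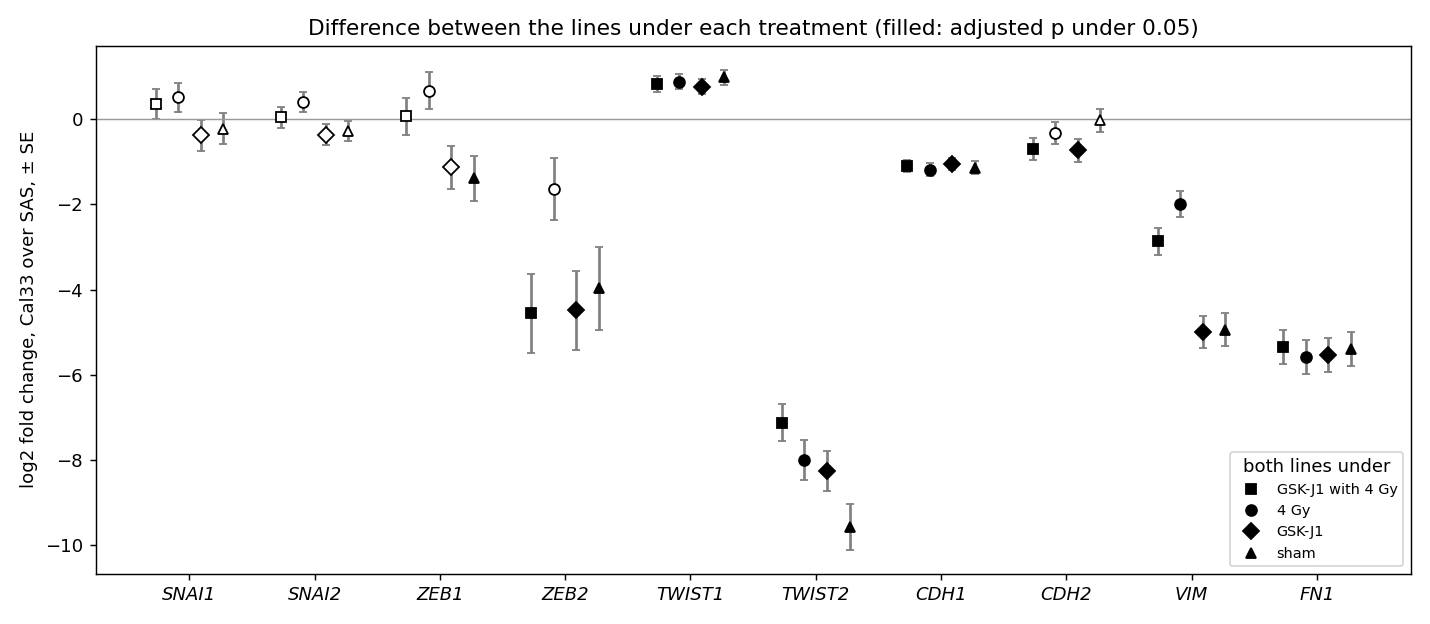
log2 fold change of Cal33 over SAS (± SE) for each gene under the 4 treatments, filled where the adjusted p was under 0.05. FN1, TWIST2, VIM and CDH1 lay below 0 and TWIST1 above 0 under all 4 treatments, and VIM lay nearer to 0 in both irradiated conditions.

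FN1 and CDH2 rose after irradiation in both lines, and VIM rose in Cal33, while the call of VIM in SAS depended on the test. In Cal33, 6 of the 9 genes tested rose after 4 Gy alone, where 3.47% of all genes rose. In SAS, 3 of the 10 rose, where 3.63% of all genes did. None of the 10 fell in either line, where 2.81% of all genes in Cal33 and 3.45% in SAS fell. FN1, CDH2 and VIM are taken first. FN1 reached 24.1, 13.6 and 15.9 CPM in irradiated and 2.82, 3.11 and 4.48 CPM in sham Cal33 cells (log2 fold change 2.38 ± 0.28 (SE), adjusted p = 0.00133). In SAS it reached 809.5, 709 and 1035 CPM after 4 Gy and 99.3, 139.6 and 201 CPM in sham cells (log2 fold change 2.53 ± 0.37 (SE), adjusted p = 0.0021). Every irradiated library lay above every sham library of its line.

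CDH2 rose in both lines as well. Its level was 6.47, 7.61 and 7.77 CPM in irradiated and 1.75, 3.87 and 2.27 CPM in sham Cal33 cells (log2 fold change 1.48 ± 0.27 (SE), adjusted p = 0.01). In SAS it was 7.9, 7.96 and 11.5 CPM after 4 Gy and 1.84, 3.21 and 2.93 CPM after sham treatment (log2 fold change 1.77 ± 0.24 (SE), adjusted p = 0.00153), again without overlap. VIM showed the largest fitted change of the 9 genes tested in Cal33, with 1.32, 1.37 and 1.76 CPM in irradiated and 0.0662, 0.159 and 0.0715 CPM in sham cells (log2 fold change 3.93 ± 0.35 (SE), adjusted p = 0.000327). These are 105, 103 and 153 against 5, 11 and 7 counts, and VIM in every irradiated Cal33 library still lay below its CPM in each of the 12 SAS libraries. In SAS, VIM gave 6.09, 3.3 and 8.21 CPM after 4 Gy and 3.09, 2.72 and 3.18 CPM in sham cells, where replicate 2 was the lowest in both groups. The groups did not overlap, yet the unpaired edgeR test missed the threshold (adjusted p = 0.0763), while DESeq2 called it (adjusted p = 0.0124), as did edgeR without a filter on low counts (adjusted p = 0.0253) or without SAS 4 Gy replicate 2 (adjusted p = 0.0278). Same-numbered SAS libraries deviated together, and blocking on that number called VIM too (log2 fold change 0.91 ± 0.17 (SE), adjusted p = 0.00144). Over all alternatives the adjusted p of VIM in SAS ran from 0.00144 to 0.291. With 1 library left out, its log2 fold change ran from 0.65 to 1.25. VIM overlaps VIM-AS1 on the other strand, which rose in irradiated Cal33 as well (log2 fold change 2.31 ± 0.61, adjusted p = 0.0434). That rise rests on few counts, 30 over the 3 irradiated and 6 over the 3 sham Cal33 libraries. Counts that ignored strand held 37.6% of the strand-specific VIM counts in Cal33 and 36.6% in SAS, and all 6 calls in Cal33 were also made from them. The part of VIM-AS1 in the VIM values was not tested.

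The sequences before the start sites of the genes that moved together are shown with 2 motifs, the E-box bound by the SNAIL and ZEB repressors and the cAMP response element, an element of stress-responsive promoters that was added to the search after the FN1 promoter had been read. RefSeq promoter windows on GRCh38.p14 matched 6 of the 10 genes, and the 250 bases before each start were searched on both strands for CAGGTG, which reads CACCTG on the opposite strand, found in 17.5% of 35116 such windows, and for TGACGTCA, found in 1.65%. No window was matched for CDH1, SNAI1, SNAI2 or TWIST1, and the windows of ZEB2 and TWIST2 held neither motif. The windows shown were chosen after the values were seen, and a match is a description of the letters only. Capitals mark the matches, each sequence is written on the strand of the gene, and the base before the start comes last. FN1 (chr2:215436069-215436318, minus strand) held TGACGTCA starting 183 bases before its start. VIM (chr10:17227991-17228240, plus strand) and CDH2 (chr18:28177131-28177380, minus strand, 1 of 2 starts) held neither. ZEB1 had 7 starts, of which 2 held the E-box, and the one shown (chr10:31318966-31319215, plus strand) held it at 242 and 85 bases before the start.
FN1: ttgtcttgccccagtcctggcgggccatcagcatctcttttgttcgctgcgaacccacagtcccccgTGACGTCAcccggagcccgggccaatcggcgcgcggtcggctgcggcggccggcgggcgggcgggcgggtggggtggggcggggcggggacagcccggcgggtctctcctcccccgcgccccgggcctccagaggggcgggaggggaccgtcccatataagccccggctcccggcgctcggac
VIM: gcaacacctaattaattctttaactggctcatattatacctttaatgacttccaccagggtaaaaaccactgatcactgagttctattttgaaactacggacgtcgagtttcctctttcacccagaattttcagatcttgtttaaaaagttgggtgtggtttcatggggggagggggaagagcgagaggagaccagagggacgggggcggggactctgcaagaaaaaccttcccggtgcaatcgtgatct
CDH2: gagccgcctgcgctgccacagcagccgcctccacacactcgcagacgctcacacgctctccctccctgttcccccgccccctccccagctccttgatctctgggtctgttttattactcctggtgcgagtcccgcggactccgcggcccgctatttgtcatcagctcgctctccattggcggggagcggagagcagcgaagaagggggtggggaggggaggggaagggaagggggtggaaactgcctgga
ZEB1: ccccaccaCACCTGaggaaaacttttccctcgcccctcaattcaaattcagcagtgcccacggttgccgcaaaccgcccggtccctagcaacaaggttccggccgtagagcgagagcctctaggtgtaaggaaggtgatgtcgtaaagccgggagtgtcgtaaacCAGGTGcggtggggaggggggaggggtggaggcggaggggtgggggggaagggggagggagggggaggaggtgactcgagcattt

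Among the transcription factors, SNAI1 rose after 4 Gy in both lines. In Cal33 it gave 7.06, 3.35 and 3.57 CPM in irradiated and 0.98, 1.39 and 1.96 CPM in sham cells (log2 fold change 1.70 ± 0.44 (SE), adjusted p = 0.041), with irradiated replicate 1 far above the others. In SAS it gave 3.76, 3.16 and 2.88 CPM after 4 Gy and 1.62, 1.97 and 1.5 CPM in sham cells (log2 fold change 0.95 ± 0.18 (SE), adjusted p = 0.00864), a call that a fit of all 24 libraries did not make (adjusted p = 0.163). SNAI2 rose in Cal33, with 31.2, 35.6 and 58.1 CPM in irradiated and 24.6, 21.8 and 16.3 CPM in sham cells (log2 fold change 1.01 ± 0.26 (SE), adjusted p = 0.0399). In SAS the SNAI2 groups overlapped at 28, 29.9 and 36.2 CPM after 4 Gy and 25, 20.7 and 29.9 CPM in sham cells, although each irradiated library exceeded the sham library of the same number, and the blocked fit called it (log2 fold change 0.32 ± 0.09 (SE), adjusted p = 0.0238). That fit called 5 of the 10 genes higher in SAS, where it called 11.3% of all genes higher.

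ZEB1, rose in Cal33, with 53, 25 and 25 counts in irradiated and 7, 2 and 9 counts in sham libraries (log2 fold change 2.54 ± 0.55 (SE), adjusted p = 0.0202). In irradiated SAS cells it had 15, 13 and 26 counts against 18, 10 and 13 in sham cells, which overlap in CPM. The calls of SNAI1, SNAI2 and ZEB1 in Cal33 were each lost on leaving out any 1 of the 3 sham libraries (adjusted p between 0.051 and 0.155), while VIM, FN1 and CDH2 kept theirs. Without Cal33 4 Gy replicate 1, SNAI1 and ZEB1 were not called (adjusted p = 0.14 and 0.072), and without replicate 3 neither SNAI1 nor SNAI2 was (adjusted p = 0.076 and 0.16). SNAI2 was also lost without replicate 2 (adjusted p = 0.051) and in the fit of the 6 libraries alone (adjusted p = 0.060). ZEB2 in Cal33 did not reach the mean of 1 count per library needed for the test, with 4, 1 and 2 counts after 4 Gy and 0, 0 and 1 in sham cells, a ratio of 7.02 (95% exact binomial interval 0.902 to 316) that takes in 1. TWIST1 gave 4.62, 5.56 and 4.74 CPM in irradiated Cal33 against 5.19, 4.48 and 4.81 CPM in sham cells, and 3.3, 2.36 and 2.47 CPM in irradiated SAS against 2.48, 2.67 and 2.21 CPM in sham cells. The libraries of both groups overlapped in each line. TWIST2 in SAS gave 3.97, 3.03 and 3.72 CPM after 4 Gy and 4.07, 4.73 and 4.23 CPM in sham cells, lower in all irradiated libraries without passing the test (adjusted p = 0.307).

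CDH1, the target of these repressors, was not called. Irradiated Cal33 cells held 188, 185 and 192 CPM and sham cells 174, 181 and 168 CPM, higher in every irradiated library without passing the test (adjusted p = 0.426). In SAS, CDH1 gave 345, 487 and 450.1 CPM after 4 Gy and 363, 461 and 323 CPM in sham cells, with overlap (adjusted p = 0.634). Across both lines and all treatments it was called in no comparison within a line.

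**Figure D3:**
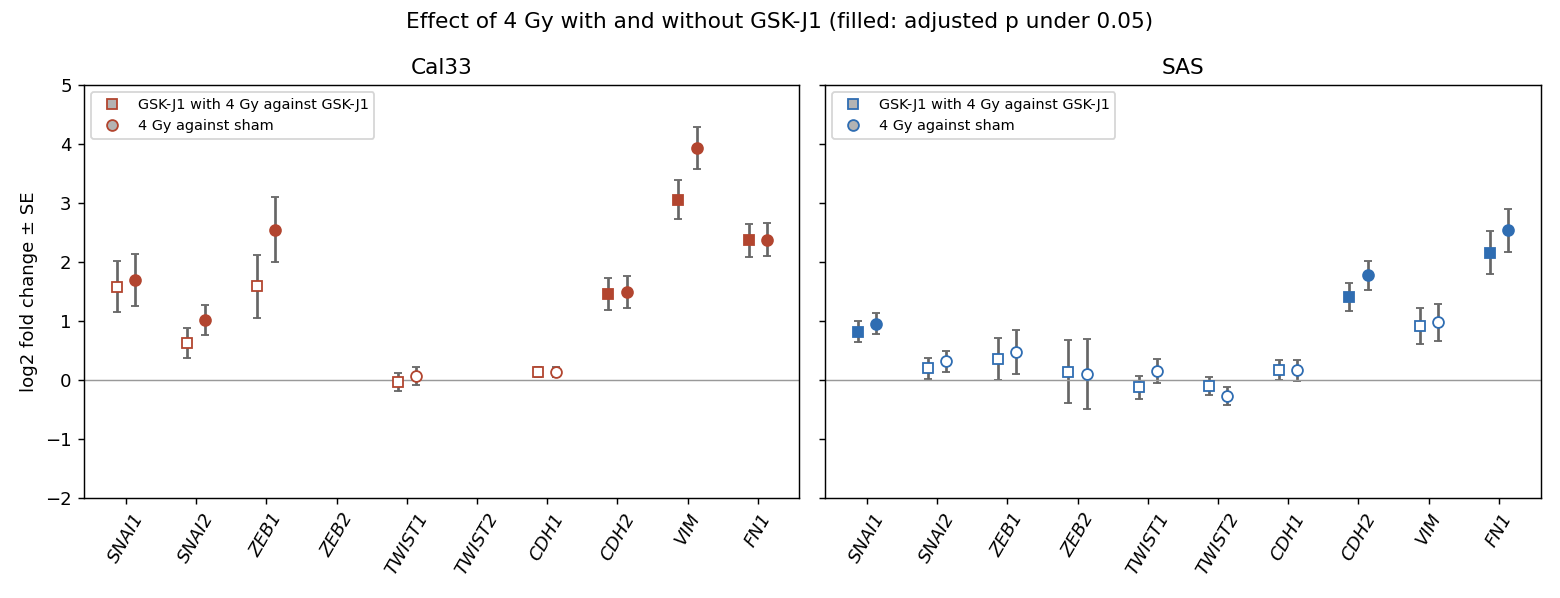
log2 fold change (± SE) of irradiation in the presence of GSK-J1 (squares) and without it (circles), Cal33 on the left and SAS on the right, filled where the adjusted p was under 0.05. VIM, FN1 and CDH2 in Cal33 and FN1, CDH2 and SNAI1 in SAS were called in both comparisons, and CDH1 and TWIST1 in neither. ZEB2 and TWIST2 in Cal33 are left out for their low counts.

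Irradiation in the presence of GSK-J1 was read from GSK-J1 with 4 Gy against GSK-J1 alone. It is not an independent repeat, since all 12 libraries of a line share a fit. Same-numbered libraries of 4 Gy and of GSK-J1 with 4 Gy also deviated together (r = 0.77 to 0.94 in Cal33 and 0.59 to 0.73 in SAS). In Cal33, 3 of 9 genes rose against GSK-J1 alone (background 3.04%), and in SAS 3 of 10 (background 2.43%). FN1 in Cal33 was at 21, 11.9 and 13.9 CPM with GSK-J1 and 4 Gy and 3.79, 2.76 and 2.7 CPM with GSK-J1 alone (log2 fold change 2.36 ± 0.28 (SE), adjusted p = 0.00169). VIM was at 1.11, 0.773 and 1.08 CPM with both and 0.12, 0.135 and 0.103 CPM with GSK-J1 alone (log2 fold change 3.06 ± 0.34 (SE), adjusted p = 0.00113). CDH2 was at 6.25, 6.95 and 6.92 CPM with both and 2.55, 1.84 and 3.02 CPM with GSK-J1 alone (log2 fold change 1.46 ± 0.27 (SE), adjusted p = 0.0122), a call that was lost without Cal33 GSK-J1 replicate 2 (adjusted p = 0.067). The groups of these 3 genes did not overlap, and the share of all genes without overlap was not determined. SNAI1 gave 7.41, 2.57 and 3.39 CPM with both treatments and 2.05, 0.918 and 1.56 CPM with GSK-J1 alone, just short of a call (adjusted p = 0.0578). When these 6 libraries were blocked by replicate number, which deviate together by number, SNAI1, SNAI2 and ZEB1 were called as well, so that 6 of 9 rose (background 10%). The blocked values were 1.52 ± 0.20 for SNAI1, 0.61 ± 0.14 for SNAI2 and 1.62 ± 0.45 for ZEB1 on the log2 scale (SE).

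In SAS under GSK-J1, FN1 was at 550.1, 546 and 813 CPM with 4 Gy and 77.4, 117 and 234 CPM without (log2 fold change 2.15 ± 0.36 (SE), adjusted p = 0.00698). CDH2 was at 10.3, 10.2 and 12.4 CPM with 4 Gy and 2.89, 4.43 and 5 CPM without (log2 fold change 1.41 ± 0.24 (SE), adjusted p = 0.00713). SNAI1 was at 4.26, 3.18 and 3.03 CPM with 4 Gy and 1.9, 2.01 and 2.02 CPM without (log2 fold change 0.82 ± 0.18 (SE), adjusted p = 0.023). None of these groups overlapped, and the share of all genes without overlap was again not determined. Both libraries with Cal33 transcripts enter here, and without them no gene of the 10 was called, at log2 fold changes of 1.95 for FN1 (adjusted p = 0.055), 1.25 for CDH2 (adjusted p = 0.069) and 0.62 for SNAI1 (adjusted p = 0.22) on 2 libraries per group. SNAI1 was also lost on leaving out SAS GSK-J1 with 4 Gy replicate 1 or 2 (adjusted p = 0.077 and 0.054), or SAS GSK-J1 replicate 1 or 2 (adjusted p = 0.092 and 0.061), and in the fits of 6 (adjusted p = 0.0547) and of all 24 libraries (adjusted p = 0.272). VIM gave 8.83, 4.5 and 8.36 CPM with 4 Gy and 4.37, 3.06 and 4.11 CPM without, and missed the threshold in the unpaired edgeR test (adjusted p = 0.109). It was called by DESeq2 (adjusted p = 0.0260), without a filter on low counts (adjusted p = 0.0443) and with the replicate block (log2 fold change 0.87 ± 0.16 (SE), adjusted p = 0.00182), which called 4 of the 10 genes higher (background 10.4%). Over all alternatives the adjusted p of VIM here ran from 0.000134 to 0.361.

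Set against the same sham libraries, cells given GSK-J1 with 4 Gy showed 3 of 9 genes higher in Cal33 (background 2.91%) and 4 of 10 in SAS (background 3.87%), and these comparisons share their controls with those of 4 Gy alone. In Cal33 they were VIM (3.35 ± 0.35 on the log2 scale, SE), FN1 (2.19 ± 0.27) and CDH2 (1.37 ± 0.27). CDH2 was not called without Cal33 GSK-J1 with 4 Gy replicate 3, or without Cal33 sham replicate 1 or 3 (adjusted p between 0.063 and 0.069), nor in the fit of the 6 libraries alone (adjusted p = 0.053). In SAS they were FN1 (2.11 ± 0.36), CDH2 (2.03 ± 0.24), SNAI1 (1.03 ± 0.18) and VIM (1.26 ± 0.31). The call of VIM was lost without either of SAS GSK-J1 with 4 Gy replicates 1 and 3 or SAS sham replicates 1 and 2 (adjusted p between 0.080 and 0.10) without the libraries with Cal33 transcripts (adjusted p = 0.091) and with counts that ignored strand (adjusted p = 0.060), and that of SNAI1 in a fit of all 24 libraries (adjusted p = 0.11). The replicate block added SNAI2 in SAS (log2 fold change 0.40 ± 0.09 (SE), adjusted p = 0.00559), for 5 of 10 (background 12.4%).

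Other genes of the program were read from lists, which were chosen with earlier results of these data known. As above, 3.47% of all genes rose and 2.81% fell after 4 Gy in Cal33, and 3.63% rose and 3.45% fell in SAS. Of the mesenchymal and partial EMT genes, 9 of 31 rose and none fell after 4 Gy in Cal33, at a median log2 fold change of 0.61 beside 0.01 over all genes tested. They included THBS1, a matricellular protein that activates latent TGF-beta (1.71 ± 0.16), the fibronectin receptor subunit ITGA5 (1.38 ± 0.18), the collagen chain COL5A1 (0.82 ± 0.16), the receptor kinase AXL (1.99 ± 0.41) and the lysyl oxidase LOXL2 (1.28 ± 0.32). In SAS, 6 of 32 rose and none fell, at a median of 0.14 beside −0.02 over all genes. They included the mesenchymal cadherin CDH11 (3.16 ± 0.21) and the laminin chain LAMB3 (1.02 ± 0.20). Of 15 other EMT factors tested, 3 rose and 1 fell in each line. SOX9, HMGA2 and ETS1 rose in both, by 1.94 ± 0.36, 0.85 ± 0.16 and 1.19 ± 0.28 in Cal33 and by 1.06 ± 0.18, 1.15 ± 0.20 and 1.06 ± 0.29 in SAS on the log2 scale (SE), while SNAI3 fell in Cal33 (-1.57 ± 0.33) and ID1 in SAS (-0.74 ± 0.18).

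Against the same shares of all genes, the epithelial side and the upstream pathway were counted. Here and in the paragraph before, values with ± are log2 fold changes with their SE. Values marked as fold are linear ratios and do not rank against them. Of 14 epithelial regulators tested, KLF4 (1.56 ± 0.29) and OVOL1 (2.82-fold), a repressor of ZEB1, rose after 4 Gy in Cal33 and FOXA1 fell (-0.51 ± 0.14), whereas OVOL1 (0.54 ± 0.11) and GRHL3 (3.02-fold) rose in SAS. Of 26 epithelial junction genes, CLDN1 rose in Cal33 (0.64 ± 0.17), and CLDN4 (0.49 ± 0.12) and CTNNB1 (0.42 ± 0.11) rose in SAS. Of 14 genes of the TGF-beta pathway, BAMBI rose in Cal33 (0.87 ± 0.24), and the receptors TGFBR2 (0.38 ± 0.07) and TGFBR3 (0.95 ± 0.22) rose in SAS. Of 10 squamous epithelium markers, KRT6A rose in Cal33 (1.06 ± 0.24). In SAS 3 rose and 3 fell, among them KRT16 (3.03-fold higher), KRT6A (2.15 ± 0.35) and DSC3 (-0.91 ± 0.10). Of 10 corepressors of SNAI and ZEB, edgeR called 0 after 4 Gy in either line, with 1 unadjusted p under 0.05 and 1 call by DESeq2 in each. Of 6 loci of the miR-200 family and miR-205, edgeR and DESeq2 called 0 in either line, with 0 unadjusted p under 0.05. These are gene counts at the loci, and the mature microRNAs were not measured. Of 6 fibroblast markers tested beside FN1 and VIM, 0 were called higher and PDGFRB was called lower in irradiated Cal33 by edgeR (-1.44 ± 0.39), with 2 unadjusted p under 0.05 and 0 calls by DESeq2. PDGFRA had 30 counts over the 3 irradiated and 4 over the 3 sham Cal33 libraries, and 17 counts with GSK-J1 and 4 Gy against 2 with GSK-J1, without passing the edgeR test after 4 Gy. In SAS, edgeR and DESeq2 called 0 of 6, with 0 unadjusted p under 0.05, at a median log2 fold change of 0.68. Their summed level was 24.1 to 34.9 CPM in irradiated and 23.4 to 44.0 CPM in sham Cal33 libraries, and 3.72 to 5.33 CPM in irradiated and 1.86 to 4.52 CPM in sham SAS libraries, and their part in the FN1 and VIM values was not tested.

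Vimentin responded differently in the lines. The effect of 4 Gy on VIM was larger in Cal33 than in SAS by 2.95 ± 0.48 on the log2 scale (SE, adjusted p = 0.0104), the one call among the 10 genes where 0.427% of all genes were called. It started from 5, 11 and 7 counts in Cal33 sham libraries and 193, 170 and 290 in SAS sham libraries. For GSK-J1 with 4 Gy against sham, the difference in VIM just missed the threshold (adjusted p = 0.0512). None of the 10 genes was called by edgeR (background 0.634%), whereas DESeq2 called 1. An unadjusted p under 0.05 was found by edgeR for 3 of the 10, beside 2675 of 24597 genes tested. The differences in the 4 Gy effect ran between -0.30 and 2.95 over the 10 genes. Of these, 2 had an unadjusted p under 0.05, beside 2466 of 24597 genes tested.

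No effect of GSK-J1 alone on the 10 genes passed the unpaired test at this dose and time. Against sham, no member was called in Cal33 (background 0%) or in SAS (background 0%) by edgeR or by DESeq2, and 0 of 9 in Cal33 and 1 of 10 in SAS had an unadjusted p under 0.05. Over all genes, 215 of 24351 tested in Cal33 and 486 of 23416 in SAS had an unadjusted p under 0.05. Fitted changes ran between −0.17 and 1.16 on the log2 scale in Cal33, the highest of them TWIST2 at 3, 0 and 0 against 1, 0 and 0 counts, and between −0.13 and 0.62 in SAS. The highest in SAS was CDH2, with 2.89, 4.43 and 5 CPM under GSK-J1 and 1.84, 3.21 and 2.93 CPM in sham cells. It was higher in all 3 replicate numbers, and the block over these 6 libraries called it (log2 fold change 0.64 ± 0.11 (SE), adjusted p = 0.000379, background 2.59%), while the block over all 12 SAS libraries did not (adjusted p = 0.344). In the block over 6, 4 of the 10 genes had an unadjusted p under 0.05, beside 2346 of 23040 genes tested. In the block over 12, 3 of the 10 did, beside 1341 of 23416. The line difference in the GSK-J1 effect was called for none of the 10 genes (background 0%). For it, 0 of the 10 had an unadjusted p under 0.05, beside 394 of 24597 genes tested.

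Added to 4 Gy, GSK-J1 again left all members uncalled in Cal33 (background 0%) and in SAS (background 0%), by edgeR and by DESeq2 alike, with 0 members at an unadjusted p under 0.05 by edgeR in either line. In Cal33 the VIM libraries did not overlap, at 1.11, 0.773 and 1.08 CPM with GSK-J1 and 4 Gy and 1.32, 1.37 and 1.76 CPM with 4 Gy alone, without passing the test (adjusted p = 1). Same-numbered libraries of these groups deviated together in both lines. With the block over the 6 libraries, SNAI2 was lower in Cal33 (log2 fold change -0.26 ± 0.07 (SE), adjusted p = 0.0381, background 0.515%), at 28, 29.8 and 45.3 CPM with both and 31.2, 35.6 and 58.1 CPM with 4 Gy alone. The block over all 12 Cal33 libraries, whose sham numbers do not pair, did not call it (adjusted p = 1), and its unblocked value was 0.04 without Cal33 4 Gy replicate 3. In SAS, the block over the 6 libraries called 3 genes where it called 7.98% of all. FN1 was lower with GSK-J1, at 550.1, 546 and 813 CPM with both and 809.5, 709 and 1035 CPM with 4 Gy alone (log2 fold change -0.43 ± 0.04 (SE), adjusted p = 6.3e-09), lower in each of the 3 replicate numbers. CDH2 (0.26 ± 0.07) and VIM (0.30 ± 0.08) were higher. The SE and p of this block rest on 3 pairs and on a spread shared over genes, not on the pairs alone. The block over all 12 SAS libraries, where every group pairs, called 0 of the 10 (1 unadjusted p under 0.05, adjusted p = 0.705 for FN1 and 0.726 for CDH2 and VIM). The interaction of GSK-J1 and 4 Gy was called for no member in Cal33 (background 0%) or in SAS (background 0%) by edgeR or DESeq2, with 0 unadjusted p under 0.05.

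**Figure D4:**
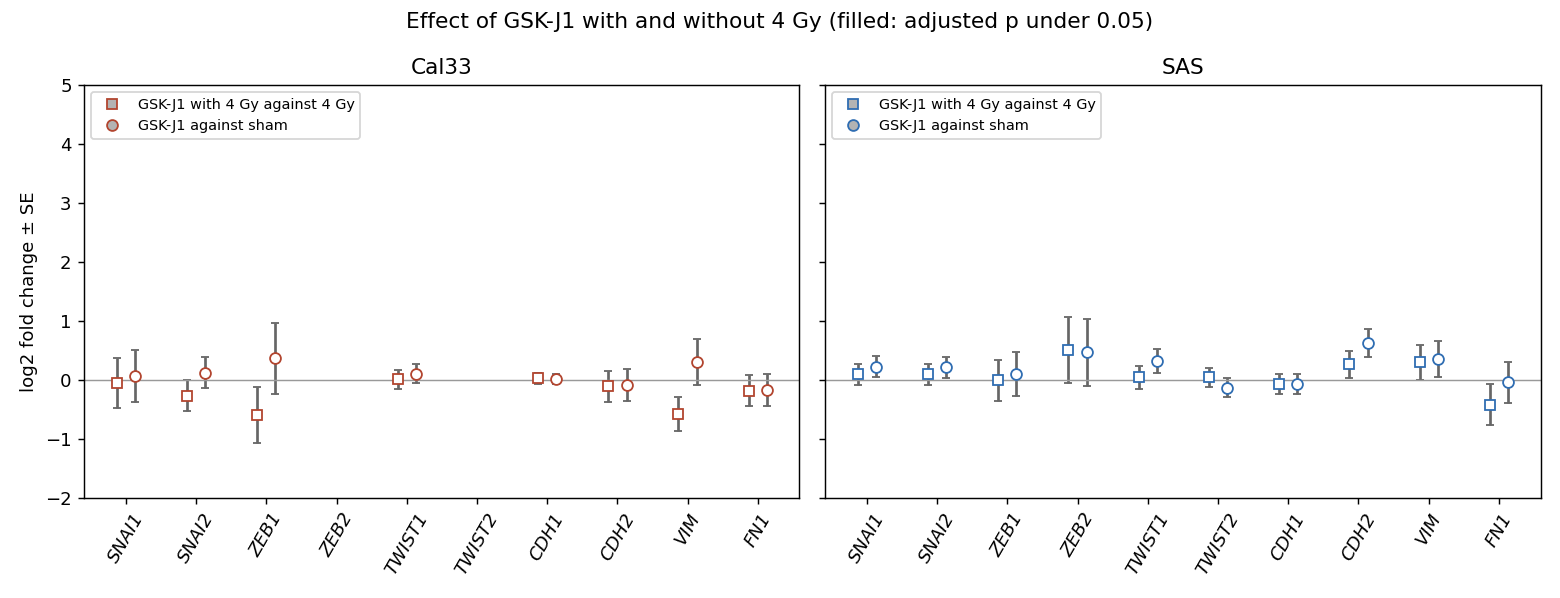
log2 fold change (± SE) of GSK-J1 in irradiated cells (squares) and without irradiation (circles), Cal33 on the left and SAS on the right. No point is filled, since none had an adjusted p under 0.05 in the unblocked test, and the range was −0.60 to 0.62. ZEB2 and TWIST2 in Cal33 are left out for their low counts.

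The balance of the cadherins was followed within each library as CDH2 per 100 CDH1, both per kb of exonic length. In Cal33 it was 4.09, 4.65 and 4.42 with GSK-J1 and 4 Gy, 4.28, 5.11 and 5.03 with 4 Gy, 1.84, 1.3 and 2.09 with GSK-J1 and 1.25, 2.66 and 1.68 in sham cells. In SAS it was 3.71, 2.7 and 3.75 with GSK-J1 and 4 Gy, 2.84, 2.03 and 3.18 with 4 Gy, 1.04, 1.25 and 2.06 with GSK-J1 and 0.631, 0.866 and 1.13 in sham cells. All irradiated Cal33 libraries lay above all unirradiated ones, while in SAS the GSK-J1 and 4 Gy groups overlapped. E-cadherin RNA stayed in large excess of N-cadherin RNA in all 24 libraries. FN1 per 100 CDH1 reached 83.3, 51.8 and 81.7 in irradiated and 9.73, 10.8 and 22.1 in sham SAS cells, and 4.57, 2.61 and 2.95 in irradiated and 0.575, 0.611 and 0.951 in sham Cal33 cells. These ratios combine values tested above and were not tested again, and their size depends on the exonic lengths used.

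**Figure D5:**
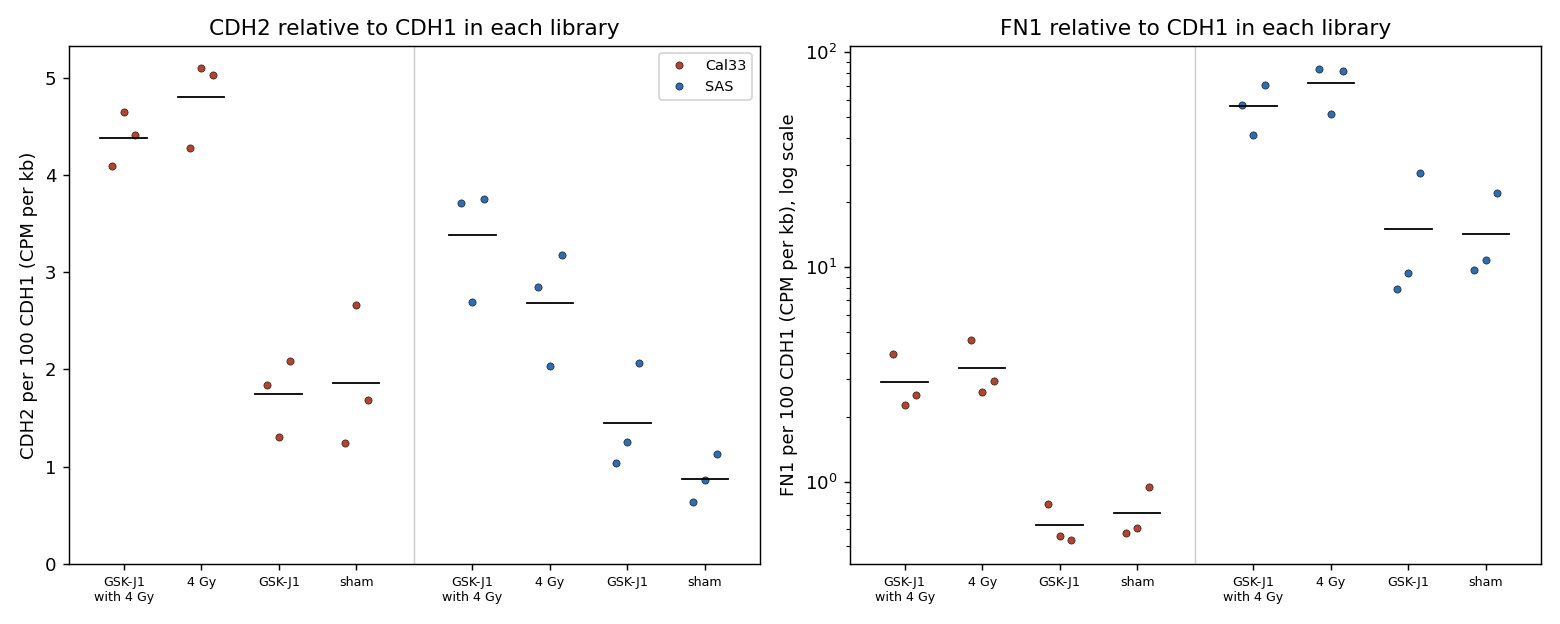
CDH2 (left, linear axis from 0) and FN1 (right, log axis) per 100 CDH1 in each library (points) with the group mean (bar), from CPM per kb of exonic length. CDH2 stayed at or under 5.11 per 100 CDH1, and FN1 in all SAS libraries lay above FN1 in all Cal33 libraries.

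The genes most alike in pattern were sought over the 12 libraries of each line among genes of at least 10 CPM, as the highest Pearson correlation of log2 CPM. The libraries of a line share its treatments and depth, so these are descriptions. FN1 in Cal33 was most like TGFA (r = 0.996), SAMD4A (r = 0.991) and CDCP1 (r = 0.988), and in SAS most like AIM1L, MISP and NFKBIB (r = 0.979 to 0.981). SNAI1 in Cal33 ran with SLCO4A1, TRAM2 and ETS1 (r = 0.982 to 0.987), the last being one of the other EMT factors. CDH2 was closest to SS18 in Cal33 (r = 0.990) and to TRNP1 in SAS (r = 0.983). For TWIST1 the best r was 0.819 in Cal33 (LRFN3) and 0.888 in SAS (DHODH). No gene came up among the 3 most alike of the same member in both lines.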

How the data were processed

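Stranded total RNA libraries of 24 samples were sequenced by the authors. Per the labels and the study's methods, reads were aligned with STAR 2.5.3a to hs37d5, handled with SAMtools 1.6 and counted per gene with featureCounts of Subread 1.5.1, and the deposited values are raw counts per gene for 1 library per file. The count on the strand of the gene was used, while FPKM and TPM values were left aside. Counts were tested with the quasi-likelihood F test of edgeR 4.0.16 (R 4.3.3) after TMM scaling, with group means, genes averaging 1 count or more over the fitted libraries, and Benjamini-Hochberg adjustment over all genes tested. A gene was called at an adjusted p under 0.05. Comparisons within a line used its 12 libraries, those between lines all 24. log2 fold changes are on the fitted scale, their SE is the size of the fold change divided by the root of F, and CPM carry no added count. A count of 0 or a low count has counting error only in its interval.

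The 10 genes and the other lists were chosen with earlier results of these data known. All 10 are described in every comparison, a fold change is given where a gene was called in the unpaired fit or in a blocked fit whose numbers pair, and at most 5 called genes of smallest p are named from any other list. Numbers were taken to pair groups where the deviations of all 3 same-numbered libraries correlated above 0.1. This held among all SAS groups (lowest 0.26) and among the 3 treated Cal33 groups (lowest 0.11), not with Cal33 sham, whose lowest correlations were -0.68 to -0.60, nor between lines, except for GSK-J1 with 4 Gy (lowest 0.13). The labels give no batch, so pairing was judged on the same libraries that were then tested. A block over 6 libraries holds 3 pairs, and its SE and p lean on the spread shared over genes.

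Alternatives were DESeq2 size factors, the DESeq2 1.42.0 test, other filters, unstranded counts, a replicate block, fits of fewer or more libraries and of all but 1 library in turn. Promoter windows come from RefSeq on GRCh38.p14, and no coordinates were converted between builds.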

Additional observations from a re-analysis of the deposited data

Results flagged for a closer look

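VIM differed between the lines in its response to 4 Gy. The effect was larger in Cal33 than in SAS by 2.95 on the log2 scale in the test of that difference (edgeR, adjusted p = 0.0104), with all 3 irradiated libraries above all 3 sham libraries in each line. It started from only 5, 11 and 7 counts in the Cal33 sham libraries. In SAS alone, the effect missed the threshold of the unpaired edgeR test. DESeq2 (adjusted p = 0.0124) and edgeR with the replicate block (adjusted p = 0.00144) called it. For GSK-J1 with 4 Gy against sham, the line difference was not called by edgeR (adjusted p = 0.0512).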

How the results depend on the processing

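Of the 61 fold changes given for single genes, the alternatives kept direction and call in 860 refits, gained a call in 28, lost one in 47 and turned 1 around. DESeq2 size factors changed none of the 61. The one reversal was SNAI2 in Cal33, GSK-J1 with 4 Gy against 4 Gy, which ranged from -0.5369 to 0.0377 on leaving out single libraries. The counts of called genes moved as follows, and the cause was not tested. In Cal33, 4 Gy against sham gave 6 calls and 3 to 5 with 1 library left out. GSK-J1 with 4 Gy against sham gave 3 calls in Cal33, but 5 without a filter on low counts, with the replicate block, by DESeq2 or with all 24 libraries, and 2 to 5 with 1 library left out. Against GSK-J1 alone, the combination gave 3 calls in Cal33, 5 with the replicate block over 12 libraries, 6 with the block over 6, 5 with all 24 libraries and 2 to 4 with 1 library left out. Against 4 Gy alone it gave 0, and 1 with the block over 6. In SAS, 4 Gy against sham gave 3 calls, and 5 with either replicate block. GSK-J1 against sham gave 0, and 1 with the block over 6, and the combination against 4 Gy gave 0, and 3 with that block. Neither gave a call with the block over 12 libraries. The combination against GSK-J1 gave 3 calls in SAS, and 0 without both libraries that hold Cal33 transcripts, where 2 libraries per group remain. The line difference in the effect of the combination gave 0 calls, but 1 without a filter, at a mean of at least 10 counts, with the replicate block or by DESeq2, and 0 to 1 with 1 library left out. Apart from the calls given beside their results, the block changed none of those in comparisons whose numbers pair. Low counts limit ZEB1, ZEB2, VIM and TWIST2 in Cal33 and ZEB1 and ZEB2 in SAS.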
